A study of Mus musculus with 6 samples.

Results

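The genes described here mark 2 regions that a whole-brain dissection can take up to a different extent, the olfactory bulb at the front of the brain and the thalamus deep in its centre. They were chosen by name: Omp, Doc2g, Lbhd2, Eomes, Tbx21 and Cdhr1 for the bulb, and Tcf7l2, Prkcd, Gbx2 and Gpr151 for the thalamus and the adjoining habenula. These are 10 of the 18193 genes that the array reports by probe sets annotated to a single gene, and they have 16 of its 45037 probe sets that are not controls, 8 for each region. All 16 passed the filter on dim probe sets and belong to the 27022 tested. The brains came from 3 mice heterozygous for a periphilin knockout and 3 wild-type C57BL/6 littermates, all male and 2 months old, each hybridised to its own Affymetrix array. The labels give the tissue as whole brain and do not say how far the bulbs or the pituitary stalk were kept. The sources used here do not give the site of the disruption in the periphilin gene, Pphln1, or how the knockout was made, and C57BL/6 is the one strain named.

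The olfactory bulb is the first relay of smell. Axons of sensory neurons in the nose, which make olfactory marker protein (Omp), end there on the mitral and tufted cells, the output neurons of the bulb. The T-box transcription factors Eomes (also called Tbr2) and Tbx21 (T-bet) and the cadherin-related protein Cdhr1 are known for their expression in mitral and tufted cells. The thalamus relays sensory signals to the cortex. Its neurons express Tcf7l2, a transcription factor of the Wnt pathway that is also made in the oligodendrocyte lineage, and many relay neurons express Prkcd, the delta isoform of protein kinase C. Gbx2 is a homeobox factor of thalamic development, and Gpr151 is an orphan receptor best known from the habenula. In whole tissue, fewer cells of a type and less RNA per cell cannot be told apart.

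The values, deposited by the authors, are intensities of probe sets on a linear scale that had been brought to a common level: the mean of the central 96% of values was 150.0 on every array. Differences were taken on log2(intensity + 16), heterozygous minus wild type, which understates the change of dim probe sets. The dim limit, below which a probe set's mean kept it out of the test, was a signal of 18.4. The 6 arrays correlated at 0.978 to 0.984 in pairs, and the 3'/5' ratio of the actin control, a sign of RNA integrity, was 1.60 to 1.72 in heterozygous brains and 1.64 to 1.70 in wild-type brains. The same ratio of the Gapdh control did not overlap, with 0.747 to 0.755 in heterozygous brains and 0.713 to 0.731 in wild-type brains. The targeted gene, Pphln1, measured 352.8, 269.2 and 337.5 in heterozygous brains, against 294.9, 290.2 and 314 in wild-type brains at 1434822_at (log2 difference 0.08, SE 0.11, limma adjusted p = 0.969), and the genotypes overlapped. At the dimmer 1435766_at it measured 30.6, 44.4 and 36.6 in heterozygous brains, each below the 63.2, 47.3 and 46.3 of wild-type brains (log2 difference -0.36, SE 0.18, limma adjusted p = 0.956). Since the disrupted stretch is unknown here, neither probe set checks the genotype labels. Heterozygous 1 had the lowest mean correlation with the others, 0.979, against 0.981 to 0.982 for the rest. It was lowest of the 6 arrays at 18.6% of all tested probe sets and highest at 22.2%. Log2 differences of members that moved by over 1.5 times without heterozygous 1 are also given without it.

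None of the 16 probe sets passed the test between genotypes, against 0.0148% of all probe sets tested (4 of 27022; limma, Benjamini-Hochberg adjusted p below 0.05). Their limma adjusted p lay between 0.956 and 0.990. At an unadjusted limma p below 0.05 there were 3 of 16, 1 each of Omp, Lbhd2 and Tcf7l2, where all tested probe sets gave 4.83%. The genotypes did not overlap at 5 of the 16 probe sets, against 10.2% of all. Heterozygous brains lay above wild-type brains at 2 of them (5.43% of all probe sets) and below at 3 (4.81% of all). Several of the 16 report the same gene, so they are not independent. By each gene's brightest probe set, the median log2 difference was 0.09 over the 6 bulb genes and -0.01 over the 4 thalamus genes, beside 0.01 over all 13024 genes tested.

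**Figure D1:**
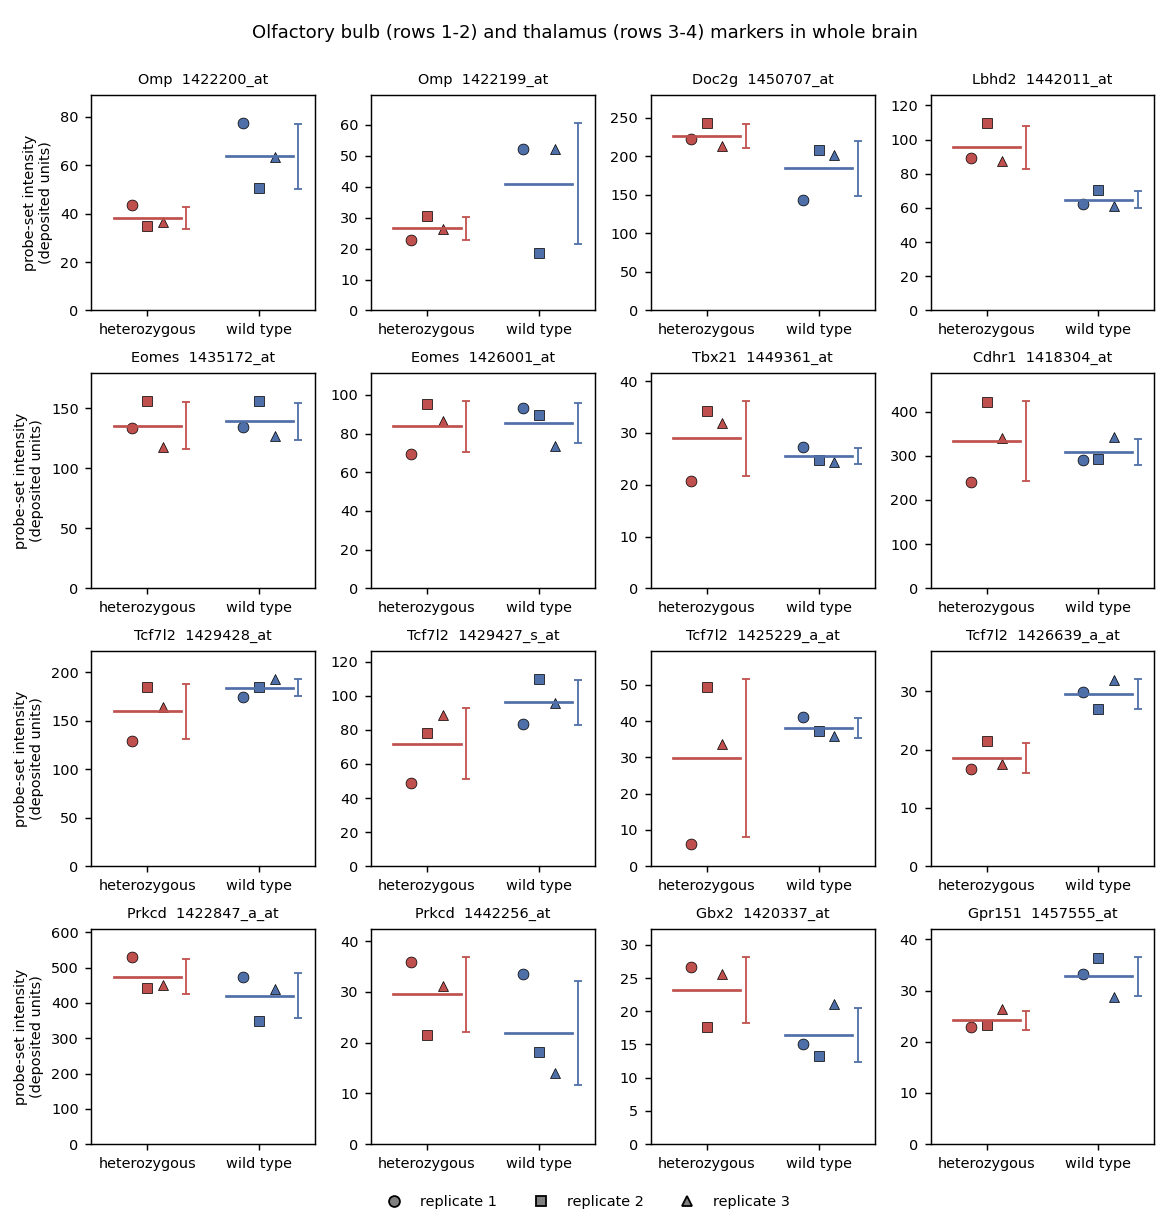
Deposited intensity (vertical axes, linear, from 0) of each of the 16 probe sets in the 3 heterozygous brains (red, left) and the 3 wild-type brains (blue, right). Each point is 1 brain with its shape giving the replicate number, lines are means and bars are SD; Omp 1422200_at, Doc2g, Lbhd2, Tcf7l2 1426639_a_at and Gpr151 are the 5 probe sets at which the genotypes do not overlap.

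Omp gave the lowest values of the bulb list in heterozygous brains relative to wild type. At 1422200_at it measured 43.5, 34.7 and 36.5 in heterozygous brains, against 77.3, 50.5 and 63.2 in wild-type brains. Each heterozygous brain lay below every wild-type brain. The means were 38.2 ± 4.66 and 63.7 ± 13.4 (SD, n = 3 each), a log2 difference of -0.54 (SE 0.17, 95% confidence interval -0.92 to -0.16, limma adjusted p = 0.956). The exact permutation p was 0.1, the smallest that 3 against 3 brains allow. The dimmer 1422199_at measured 22.8, 30.5 and 26.3 in heterozygous brains, against 52.3, 18.4 and 52.2 in wild-type brains. Here wild type 2 was the lowest of all 6, just above the dim limit, so the genotypes overlapped, and the log2 difference was -0.36 (SE 0.26, exact permutation p = 0.4). It was -0.69 without wild type 2, and -0.19 without wild type 1 or without wild type 3. Wild type 1 was the highest brain at both probe sets. The within-genotype spread of 1422199_at was wider than that of 95.4% of tested probe sets, and that of 1422200_at wider than 59.7%.

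Other genes listed for olfactory sensory neurons gave no called difference. Of 15 listed, 9 were tested, 4 with positive and 5 with negative differences, and their median was -0.01. S100a5, a calcium-binding protein of these neurons, measured 253.9, 243 and 195.3 in heterozygous brains and 263.6, 192.7 and 252 in wild-type brains. These values overlapped, with a log2 difference of -0.03 (SE 0.14). Gng13, a G protein gamma subunit, was the brightest and most variable of the list, with 896.3, 1375 and 772.1 in heterozygous brains and 1026, 1177 and 818.8 in wild-type brains. Its log2 difference was -0.02 (SE 0.19). Heterozygous brains lay above wild-type brains at 3 of the 9 genes, Adcy3, Gng8 and Ric8b, and below at none, where 10.2% of all genes did not overlap. Adcy3, the adenylyl cyclase of olfactory signalling, had the largest difference of the 9 genes, with 348.3, 326.8 and 312.1 in heterozygous brains, against 231.4, 214 and 230.3 in wild-type brains. Its log2 difference was 0.52 (SE 0.10, limma adjusted p = 0.615), opposite in sign to that of Omp. Which cells the RNA of these 9 genes came from cannot be told from whole-brain values. The mean level of this list ranged over 0.17 on the log2 scale across the 6 arrays, lowest in wild type 3 and highest in heterozygous 2.

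Doc2g and Lbhd2 were the probe sets at which each heterozygous brain lay above every wild-type brain. Doc2g, a C2-domain protein of the Doc2 family, measured 222.4, 242.8 and 212.7 in heterozygous brains, against 143.3, 208.4 and 201.3 in wild-type brains. Wild type 1 was set apart at the low end, and the other values lay within 201.3 to 242.8. The log2 difference was 0.29 (SE 0.14, interval -0.02 to 0.59, limma adjusted p = 0.956), and without wild type 1 it was 0.13. Lbhd2, an LBH-domain gene used as a marker of mitral and tufted cells, measured 89.3, 109.6 and 87.2 in heterozygous brains, against 62.6, 70.5 and 61.3 in wild-type brains. The gap between the genotypes, 70.5 to 87.2, was narrower than the spread among heterozygous brains and wider than that among wild-type brains. The means were 95.4 ± 12.4 and 64.8 ± 4.99 (n = 3 each), a ratio of 1.37 on the log2(intensity + 16) scale with limits of 1.11 and 1.71 (log2 difference 0.46, SE 0.14, limma adjusted p = 0.956). The exact permutation p was 0.1 for Doc2g and for Lbhd2.

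Stretches before annotated starts of Doc2g and Lbhd2 are printed because these are the bulb genes with higher values in every heterozygous brain. Those of Tcf7l2 are printed because its probe sets, described below, cover a gene with windows for 2 annotated starts in the sequences used. Each line gives the 250 bases before an annotated start, 5′ to 3′ on the plus strand, from RefSeq on GRCm38.p6, with every CG dinucleotide in capitals. The windows are chr19:4003135-4003384 for Doc2g, chr12:111406559-111406808 for Lbhd2, and chr19:55741560-55741809 and chr19:55895071-55895320 for the upstream and the internal start of Tcf7l2. The Lbhd2 window lies inside the annotated gene, which spans chr12:111402049-111412092, and so precedes an internal start. The window of the upstream Tcf7l2 start also ends inside its annotated gene, which begins at chr19:55741797, so that start lies just within the gene.
Doc2g: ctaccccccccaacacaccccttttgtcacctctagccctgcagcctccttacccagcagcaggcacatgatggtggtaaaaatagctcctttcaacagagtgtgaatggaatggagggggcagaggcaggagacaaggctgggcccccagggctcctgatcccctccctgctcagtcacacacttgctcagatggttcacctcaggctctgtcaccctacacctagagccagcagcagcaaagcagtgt
Lbhd2: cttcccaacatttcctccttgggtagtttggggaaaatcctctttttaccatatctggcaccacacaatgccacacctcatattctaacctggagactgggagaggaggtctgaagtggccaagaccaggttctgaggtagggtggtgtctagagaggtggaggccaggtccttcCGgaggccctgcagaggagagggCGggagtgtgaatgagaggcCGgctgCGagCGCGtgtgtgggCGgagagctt
Tcf7l2 upstream start: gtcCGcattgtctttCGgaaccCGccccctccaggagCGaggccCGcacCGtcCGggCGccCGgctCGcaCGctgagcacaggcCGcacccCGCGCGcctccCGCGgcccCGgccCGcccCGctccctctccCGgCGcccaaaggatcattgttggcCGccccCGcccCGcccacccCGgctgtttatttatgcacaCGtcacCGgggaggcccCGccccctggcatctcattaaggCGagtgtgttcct
Tcf7l2 internal start: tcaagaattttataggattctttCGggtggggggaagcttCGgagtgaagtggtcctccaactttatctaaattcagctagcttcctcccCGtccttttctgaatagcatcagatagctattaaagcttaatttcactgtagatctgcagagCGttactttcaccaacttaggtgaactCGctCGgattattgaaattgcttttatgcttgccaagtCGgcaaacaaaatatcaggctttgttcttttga
Doc2g has no CG in this window and Lbhd2 has 7, beside a median of 6 over the 32851 windows of the table. The upstream start of Tcf7l2 has 30, more than or as many as in 94.8% of windows, and the internal start has 7. No window of Omp was in the sequences used, and Gpr151 was left out of the search. Windows of 8 of the 10 genes were searched, 10 windows in all. The T-box half-site GGTGTGA, searched on both strands because Eomes and Tbx21 are T-box proteins, was in none of these 10 and in 3.33% of all windows. It was 1 of 5 motifs searched in this way, and another of them, ATTCACACC, contains its reverse complement. ATTCACACC was in none of the 10 windows (0.125% of all windows), which the absence of GGTGTGA fixed in advance. CTTTGAT was also in none of them (3.21% of all). CAGCTG was in 2, of Gbx2 and Prkcd (13.0% of all), and TAATCC was in 1, of Tcf7l2 (6.25% of all). The windows printed, the marking of CG and the motifs were chosen after the values were seen. A match or its absence describes these letters only.

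The remaining mitral and tufted cell genes of the list differed more among heterozygous brains than between the genotypes. Cdhr1 measured 240.8, 420.7 and 339.8 in heterozygous brains, against 290.3, 293.4 and 341.5 in wild-type brains. Heterozygous 1 was the lowest and heterozygous 2 the highest of the 6, a ratio of 1.75 between these brains. The log2 difference between genotypes was 0.08 (SE 0.17, interval -0.29 to 0.44, limma adjusted p = 0.977), 0.28 without heterozygous 1 and -0.10 without heterozygous 2. Tbx21 was dim and showed the same extremes, with 20.7, 34.2 and 31.8 in heterozygous brains, against 27.3, 24.8 and 24.4 in wild-type brains. The SD was 7.22 in heterozygous brains and 1.54 in wild-type brains, and the log2 difference was 0.10 (SE 0.19), 0.24 without heterozygous 1, 0.015 without heterozygous 2 and 0.050 without heterozygous 3. Eomes measured 133.1, 155.8 and 117.3 in heterozygous brains and 134.3, 155.9 and 126.8 in wild-type brains at 1435172_at. The second Eomes probe set, 1426001_at, measured 69.5, 95.3 and 86.3 in heterozygous brains and 93.3, 89.5 and 73.6 in wild-type brains. Both overlapped almost wholly between genotypes, at -0.04 (SE 0.13) and -0.03 (SE 0.15). With an array left out, the signs of both turned: 1426001_at was at 0.078 without heterozygous 1, and 1435172_at at 0.051 without heterozygous 3. The interval of the brighter Eomes probe set, as a ratio, ran from 0.79 to 1.20.

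Across the bulb genes, heterozygous 2 was the array that stood out. By brightest probe sets it was highest for 4 of 6 genes, Doc2g, Lbhd2, Tbx21 and Cdhr1, and lowest for Omp. The mean log2 level of the 6 genes was 0.18 above the 6-array mean in heterozygous 2 and 0.08 below it in heterozygous 1. The wild-type arrays lay within 0.01 to 0.06 below that mean. The summed intensity of the 6 genes was 749.7 to 997.9 in heterozygous brains and 735 to 818.5 in wild-type brains. Without heterozygous 2 the median difference of the bulb genes turned to -0.04, and without heterozygous 1 it was 0.26.

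**Figure D2:**
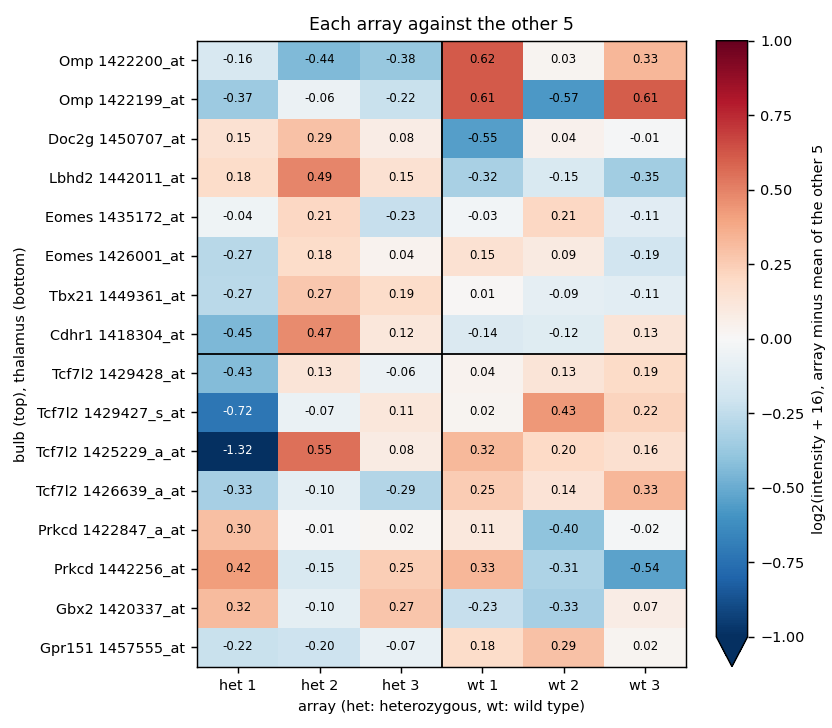
Each cell is the log2(intensity + 16) of 1 array minus the mean of the other 5, for the 8 bulb probe sets (above the line) and the 8 thalamus probe sets (below), with heterozygous arrays left of the vertical line and wild-type arrays right of it. Red is above and blue below the other arrays, with the colour scale ending at -1 and 1; heterozygous 1 is negative at all 4 Tcf7l2 probe sets, down to -1.32, and positive at Prkcd and Gbx2.

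On other bulb lists heterozygous 2 lay nearer to the rest. These lists differ from the members in number and brightness of genes, so the spans are not like for like. The 9 tested genes of mitral and tufted cells outside the members spanned 0.06 on the log2 scale over the 6 arrays, against 0.26 for the members. Their mean level was nearly the same in heterozygous 2 and wild type 1, the highest arrays, at 0.027 and 0.026 above the 6-array mean. Among them Cck, a neuropeptide that tufted cells share with many cortical cells, was highest in heterozygous 2 (1983, 2363 and 1556 in heterozygous brains, 1658, 1909 and 1617 in wild-type brains). Lhx1, a LIM homeobox gene also expressed in the cerebellum, was the most variable, with 72.1, 53.8 and 61.4 in heterozygous brains and 104.5, 42.4 and 98.4 in wild-type brains. Nmb, a bombesin-like peptide of external tufted cells, was the 1 gene of these 9 whose genotypes did not overlap, where the share of all genes was 10.2%. Nmb measured 123.4, 144.8 and 141.4 in heterozygous brains and 111.1, 123.1 and 117.5 in wild-type brains. Its log2 difference was 0.19 (SE 0.12, limma adjusted p = 0.956).

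Bulb interneurons, which arrive as neuroblasts from the wall of the lateral ventricle, gave 13 tested genes with a median difference of 0.00. No gene among these 13 had genotypes that did not overlap, where the share of all genes was 10.2%. Calb2, the calcium buffer calretinin of granule and periglomerular cells, measured 1100, 1172 and 1107 in heterozygous brains and 943.2, 1109 and 1120 in wild-type brains. Tpbg varied most, through wild type 2: 146, 144.2 and 170.8 in heterozygous brains, against 120.1, 253.4 and 107 in wild-type brains. Of the neuroblast genes, 5 were tested, and Sox11, a transcription factor of immature neurons, measured 199.4, 164.6 and 214.9 in heterozygous brains and 180.8, 235.8 and 60.2 in wild-type brains. The low value of Sox11 was that of wild type 3, while Dcx, the microtubule protein of migrating neurons, stayed between 100.04 and 112.2 on all 6 arrays. Draxin, an axon guidance protein, was the gene of these 5 whose genotypes did not overlap. It was dim, with 37.5, 18.5 and 24.9 in heterozygous brains, against 15.2, 13.5 and 15.2 in wild-type brains. Draxin differed by 0.46 on the log2 scale, with an SE of 0.21 and a limma adjusted p of 0.956. Of the genes listed for the ensheathing glia of the olfactory nerve, 6 were tested, 3 with positive and 3 with negative differences (median 0.01). Whole-brain values do not tell which cells these genes came from. Fabp7, the brightest, had 1433, 1541 and 1616 in heterozygous brains and 1609, 1714 and 1633 in wild-type brains.

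**Figure D3:**
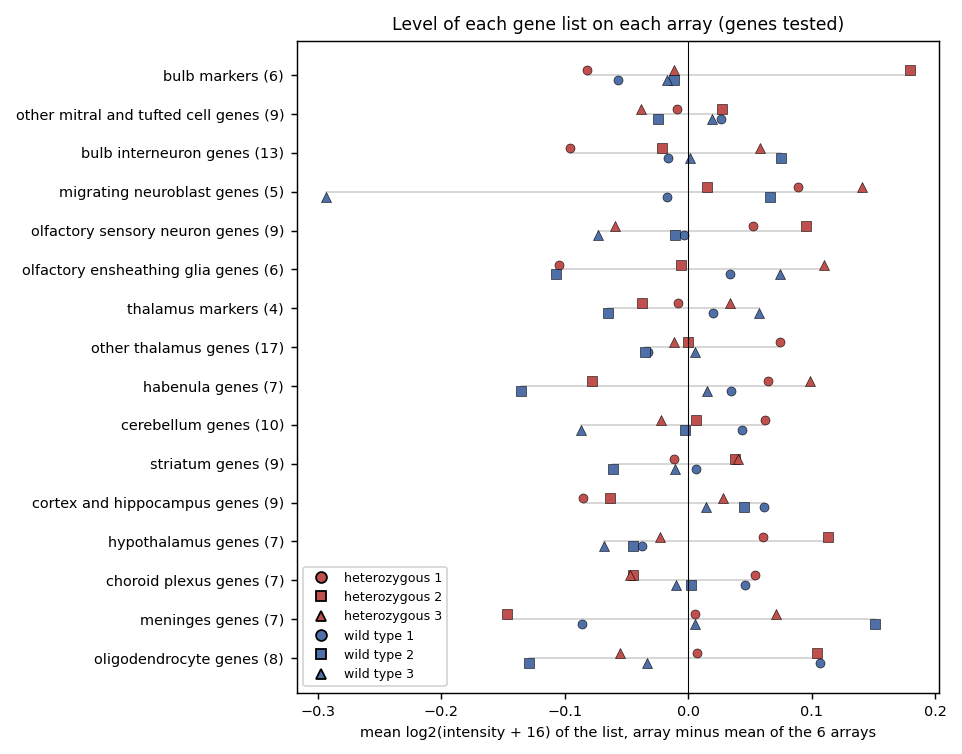
Mean log2(intensity + 16) of each gene list on each array minus the mean over the 6 arrays (horizontal axis), with 1 row per list and the number of tested genes in brackets. Red symbols, in the upper line of each row, are heterozygous brains and blue symbols wild-type brains, with shapes for replicates; the bulb members reach 0.18 in heterozygous 2, and the thalamus members stay within -0.07 and 0.06.

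Of the thalamus genes, Tcf7l2 was lower in heterozygous 1 than in any other brain at all 4 of its probe sets. The brightest, 1429428_at, measured 129.3, 184.6 and 164.3 in heterozygous brains, against 174.4, 184.9 and 192.4 in wild-type brains. At 1429427_s_at the values were 48.8, 78.3 and 88.6 in heterozygous brains and 83.5, 109.9 and 95.5 in wild-type brains. Heterozygous 2 at the brightest probe set and heterozygous 3 at 1429427_s_at lay within the wild-type range, and the other values of these brains below it. At 1425229_a_at heterozygous 1 measured 6.20, below the dim limit of 18.4, while heterozygous 2 and 3 had 49.3 and 33.8, and wild-type brains had 41.2, 37.3 and 36.0. The within-genotype spread was wider there than at 98.9% of tested probe sets. At 1426639_a_at all 3 heterozygous brains, with 16.7, 21.4 and 17.5, lay below the wild-type brains, with 29.8, 26.9 and 32.0, although 2 of these heterozygous values were under the dim limit.

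The log2 differences of Tcf7l2 were -0.20 (SE 0.13), -0.38 (SE 0.19), -0.38 (SE 0.33) and -0.40 (SE 0.18) in that order, each with a limma adjusted p of 0.956. Without heterozygous 1 they were -0.07, -0.17, 0.08 and -0.36, so the sign of 1425229_a_at turned. Without heterozygous 2, 1429428_at was at -0.30 and 1425229_a_at at -0.70. At 1426639_a_at the value without heterozygous 1 stayed near that of all arrays, and its exact permutation p over all arrays was 0.1. Which transcripts of Tcf7l2 each probe set reads, from the upstream or the internal start printed above, is not stated by the annotation used. Genes of oligodendrocytes, where Tcf7l2 is also made, had a summed intensity of 16820 to 18575 in heterozygous brains and 16139 to 18490 in wild-type brains, all 8 listed being tested. On heterozygous 1 the mean log2 level of these genes was 0.01 above the 6-array mean.

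Prkcd and Gbx2 had their highest values in heterozygous 1, opposite to Tcf7l2. Prkcd measured 530.6, 442 and 449.7 in heterozygous brains, against 473.7, 348.5 and 439.9 in wild-type brains at 1422847_a_at. The genotypes overlapped through wild type 1, and the log2 difference was 0.17 (SE 0.12, interval -0.10 to 0.44), 0.09 without heterozygous 1, 0.26 without wild type 1 and 0.05 without wild type 2. The dim 1442256_at of Prkcd measured 36.0, 21.5 and 31.2 in heterozygous brains and 33.5, 18.2 and 14.0 in wild-type brains, with a log2 difference of 0.28 (SE 0.23). It was 0.18 without heterozygous 1, 0.49 without wild type 1 and 0.13 without wild type 3. Wild type 2 was the lowest array at the brighter Prkcd probe set and wild type 3 at the dimmer one. Gbx2 lay at the dim limit, which 3 of its 6 values exceeded: 26.6, 17.6 and 25.6 in heterozygous brains, against 15.0, 13.3 and 21.0 in wild-type brains. Its log2 difference was 0.27 (SE 0.20, limma adjusted p = 0.956), and the genotypes overlapped.

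Gpr151 measured 22.8, 23.3 and 26.3 in heterozygous brains, against 33.1, 36.4 and 28.8 in wild-type brains. Each heterozygous brain lay below every wild-type brain, by a gap of 26.3 to 28.8. The means were 24.1 ± 1.90 and 32.8 ± 3.81 (SD, n = 3 each), a log2 difference of -0.28 (SE 0.17, interval -0.65 to 0.10, limma adjusted p = 0.956), with an exact permutation p of 0.1. Of 7 other habenula genes tested, 4 had positive and 3 negative differences (median 0.08), and none had genotypes that did not overlap, where the share of all genes was 10.2%. Nwd2, the brightest of them, measured 139.5, 176.6 and 211.6 in heterozygous brains and 191.2, 201.4 and 202.9 in wild-type brains. Nhlh2, a helix-loop-helix factor, varied most, with 31.1, 26.3 and 61.3 in heterozygous brains and 40.6, 28.3 and 36.1 in wild-type brains.

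**Figure D4:**
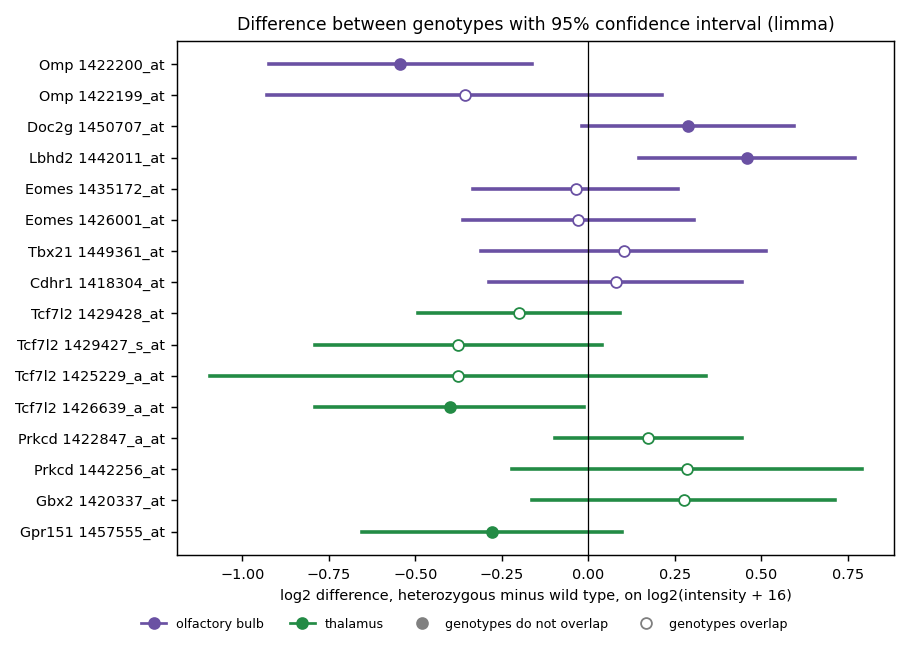
Log2 difference of each probe set, heterozygous minus wild type on log2(intensity + 16) (horizontal axis), with limma's 95% confidence interval as a line, for bulb (purple) and thalamus (green) genes. Filled points mark the 5 probe sets whose genotypes do not overlap; the intervals of Omp 1422200_at, Lbhd2 and Tcf7l2 1426639_a_at exclude 0 before adjustment, and no adjusted p is below 0.956.

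The mean log2 level of the 4 thalamus genes ranged over 0.12 across the 6 arrays, against 0.26 for the bulb genes, and the difference between these ranges was not tested. Summed intensities of the 4 genes were 666 to 709.4 in heterozygous brains and 583.1 to 696.3 in wild-type brains. A wider thalamus list of 17 genes, all tested, ranged over 0.11, with 12 positive and 5 negative differences (median 0.04). Its brightest gene, Slc17a6, the vesicular glutamate transporter of thalamic relay neurons, had 794.7, 1026 and 931.5 in heterozygous brains and 896.4, 885.9 and 1032 in wild-type brains. Slc17a6 was lowest in heterozygous 1, whereas the mean log2 level of the 17 genes was highest in that brain, 0.07 above the 6-array mean. Rgs16, a regulator of G protein signalling, varied most, with 125.7, 174.3 and 92.8 in heterozygous brains and 136.7, 132.2 and 81.2 in wild-type brains. Rorb, a nuclear receptor, was the 1 gene of these 17 whose genotypes did not overlap, where the share of all genes was 10.2%. It measured 237.1, 235.6 and 268 in heterozygous brains, against 188.2, 222.7 and 208.5 in wild-type brains (log2 difference 0.24, SE 0.11, limma adjusted p = 0.956).

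Among the 16 member probe sets, heterozygous 1 was the lowest array at 8, against 18.6% of all tested probe sets, and 4 of these 8 are Tcf7l2. Heterozygous 2 was the highest at 6, against 15.8% of all, and the lowest at 1, against 17.4%. Heterozygous 3 was the highest at none, against 15.8%, and the lowest at 1, against 13.6%. The range over the 6 arrays had a median of 0.64 on the log2 scale for the members and 0.46 for all tested probe sets, while the within-genotype SD had medians of 0.18 and 0.17.

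Genes with array profiles most like those of the members were sought among 13023 other genes, as the root-mean-square difference of centred log2 values over the 6 arrays. By brightest probe sets, Omp had the widest range of the bulb genes and Prkcd of the thalamus genes. For Omp these were Ctxn3 (0.071), Ldlrad3 (0.080) and Olfm2 (0.083), where the median gene was at 0.35. For Prkcd they were Sash3 (0.022), Zdhhc8 (0.028) and Gpr1 (0.033), where the median gene was at 0.22.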

How the data were processed

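The authors deposited linear intensities of probe sets for each of the 6 arrays. Per the labels' protocols, total RNA of each brain was made into biotin-labelled cRNA with an oligo(dT) primer. How probes were summarised is not stated in the sources used here. Besides 64 control probe sets there were 45037, of which 34945 carried 1 gene in the platform annotation and 932 several, and 9160 go unnamed here. Through Entrez identifiers, 34741 symbols were updated from a RefSeq table of GRCm38.p6. Upstream sequences came from RefSeq for the same build.

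Intensities were analysed as log2(value + 16) without further normalization. Probe sets at or below the 40th percentile of the mean, taken on the log scale (a signal of 18.4), were left out as dim (18015). A first fit took this percentile on the linear mean, and the log-scale mean was adopted after the results of that fit were seen. The 27022 others were tested with limma 3.58.1 in R 4.3.3 (lmFit, eBayes with intensity trend, no covariate, two-sided). The p-values were adjusted by Benjamini-Hochberg over these probe sets, with a threshold of 0.05. Exact permutation tests were two-sided over the 3 against 3 brains. Fitting was tested on simulated data. A gene in a list is represented by its brightest tested probe set.

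Every member probe set is described. Of each other list, the brightest and the most variable gene could be named by rule, and not all of them are; S100a5, Dcx, Draxin, Nmb, Rorb, Adcy3, Gng8 and Ric8b were chosen after their values were seen. Members and lists were chosen with earlier results of these data known. The heterozygous title without a number was taken as replicate 1. Same-numbered brains correlated at 0.08, 0.20 and -0.02 in their deviations from the genotype means, and the other pairs at -0.16 to 0.09. With 3 brains per genotype, these values cannot settle whether the numbers pair the brains. The main fit treated them as unpaired. The number of arrays limits the precision.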

Additional observations from a re-analysis of the deposited data

How the results depend on the processing

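The count of member probe sets past the threshold was 0 under all 16 alternative fits: quantile normalization, median centring, pseudocounts of 1 and 64, no dim filter or a stricter one, the dim filter on the linear mean, eBayes without trend or robust, the replicate number as a block, and each array left out in turn. The lowest limma adjusted p of a member over these fits was 0.612, and at an unadjusted p below 0.05 the main fit had 3. The count over all probe sets, 4 in the main fit, was 1 without the dim filter, 1 without trend, 5 with the replicate block, and 1 to 14 with an array left out, 14 of them without heterozygous 1. With the block, the log2 differences of members are the same by construction, and no member was called. The fit with the dim filter on the linear mean, run first and replaced after its results were seen, called 4 probe sets in all and gave bulb and thalamus medians of 0.09 and -0.01. Some dim members have no value under the stricter filter, which removes them.

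With an array left out, the median difference of the bulb genes lay between -0.042 (without heterozygous 2) and 0.26 (without heterozygous 1), and that of the thalamus genes between -0.074 (without wild type 2) and 0.020. Of 248 values of single member probe sets under the alternatives, 7 changed sign, none of them a call. Eomes 1426001_at was at 0.078 without heterozygous 1, 0.028 without wild type 1 and 0.0019 without wild type 2, with -0.12 as its lowest value with an array left out. Eomes 1435172_at was at 0.051 without heterozygous 3 and 0.040 without wild type 2, with -0.13 as its lowest. Tcf7l2 1425229_a_at was at 0.076 without heterozygous 1 and otherwise down to -0.70. Cdhr1 was at -0.098 without heterozygous 2 and otherwise up to 0.28. No sign changed under either normalization or either pseudocount. The causes were not tested. Signals near the dim limit, as for Gbx2, Tbx21, Gpr151 and the dimmer probe sets of Omp, Prkcd and Tcf7l2, limit what can be resolved.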

Other observations

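Neighbouring regions gave another view of how alike the brains were, through lists that differ in number and brightness of genes. The 9 tested striatum genes spanned 0.10 on the log2 scale over the 6 arrays, the 10 cerebellum genes 0.15, the 9 cortex and hippocampus genes 0.15 and the 7 hypothalamus genes 0.18, against 0.26 for the bulb members and 0.12 for the thalamus members. None of these lists held a gene past the threshold. Genotypes did not overlap at 2 of the 9 cortex and hippocampus genes, both lower in heterozygous brains, and at 1 of the 10 cerebellum genes, higher. They did so at 0 striatum and 0 hypothalamus genes, where the share of all genes was 10.2%. The mean level of the hypothalamus list, against the 6-array mean, was -0.02 to 0.11 in heterozygous brains and -0.07 to -0.04 in wild-type brains, which was not tested. In the cerebellum list En2, a homeobox gene, varied most, with 199.3, 173.2 and 262.4 in heterozygous brains and 295.7, 257.3 and 235 in wild-type brains, while Calb1, the brightest, ranged over 0.23 on the log2 scale. In the cortex and hippocampus list Spink8 varied most (log2 difference -0.29), and in the striatum list Rasd2 (0.19), whereas Penk, the opioid precursor, ranged over 0.19 across the arrays. Choroid plexus genes ranged over 0.10 and meningeal genes over 0.30.

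The pituitary was the tissue whose genes differed most between brains, with a range of 4.55 for its 6 tested genes. Prl, which encodes prolactin, measured 76.7, 38.8 and 3730 in heterozygous brains and 8306, 415.4 and 456.1 in wild-type brains. The summed intensity of the list was 185.2 to 6709 in heterozygous brains and 791 to 21234 in wild-type brains. Wild type 1, highest in these genes, was also highest at both Omp probe sets and lowest at Doc2g, while heterozygous 3, the next in pituitary genes, was neither highest nor lowest at any Omp, Doc2g or Lbhd2 probe set; the part of dissection in these values was not tested. Of the T cell list, in which Tbx21 would also be found, only Cd8a passed the dim filter, with a summed intensity of 16.6 to 32.2 in heterozygous brains and 24.2 to 39.5 in wild-type brains. Of the blood list, 4 of 7 genes were tested, and S100a8, a neutrophil gene, varied most, with a range of 1.68.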
